A study of Gasterosteus aculeatus with 12 samples.

Results

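A set of 100 genes of the threespine stickleback kidney is described here, whose lowest value in saltwater (SW) fish stood highest above every value in freshwater (FW) fish. Expression was measured as FPKM, the number of sequenced fragments relative to the length of the transcript and to the depth of the library. The 100 were taken from the 15503 genes whose mean FPKM over the 12 libraries was at least 1, out of 20860 genes in all. To choose them, each library was multiplied so that its median over the 15503 genes was 10, which is called scaled FPKM below. The score of a gene was its lowest SW value plus 1, divided by its highest FW value plus 1, and the 100 genes with the highest score were taken. The difference between SW and FW fish therefore chose the members and is given as a description, with no test.

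Threespine sticklebacks live in the sea and in lakes and streams, and lake fish descend from marine ones. The kidney of a freshwater fish excretes a large volume of dilute urine and takes back salt in the tubules, whereas in sea water little urine is made and divalent ions are secreted into it. The fish kidney also holds blood-forming tissue, so a whole-kidney RNA sample contains tubule, vessel and blood cells together. In such a sample fewer cells of a type and less RNA per cell cannot be told apart.

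The fish were wild-caught adult females, FW fish from a lake in Davis and SW fish from Bodega Bay, both in California, and each library came from the kidney of 1 fish. FW fish were acclimated for 30 days at a salinity of 0, 11 or 33 g/L (FW00K, FW11K and FW33K) and SW fish for 30 days at 33 g/L (SW33K), with 3 fish in each of the 4 treatments. SW fish were kept at 1 salinity only, so the populations met at the same salinity only in FW33K and SW33K, and each population came from 1 place. The alignment allowed 2 mismatches per read in FW libraries but 3 in SW libraries, which cannot be told apart from the population.

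The median FPKM of the 15503 genes before scaling was highest in FW00K (14.4 to 16.7), followed by FW11K (10.3 to 11.8), SW33K (5.43 to 11.0) and FW33K (4.39 to 6.75), and FPKM hold no read counts, so the reads behind a single value are unknown. By the study's own list, FW11K replicate 1 and FW33K replicate 1 had the fewest reads that went into mapping. The 20 most abundant genes took 10.8% to 41.8% of the FPKM sum of a library. Within each treatment, replicates 2 and 3 were closer to each other (Pearson's r of log2(scaled FPKM + 1) across genes, which are not independent, 0.990 to 0.992) than replicate 1 was to either of them (0.854 to 0.941). Of the kidney markers, *SLC12A1* and *SLC12A3*, sodium chloride transporters of the distal tubule, and *SLC34A1*, a phosphate transporter of the proximal tubule, were detected in all 12 libraries. *NCF1*, a granulocyte gene, stood at 12.2 to 13.9 scaled FPKM in SW33K and at 53.2 to 272 in the FW libraries, and the part of this difference in the results was not tested.

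Symbols were known for 37 of the 100 members. They come from a table of genes that the study selected on these same libraries, so the named members are not a random part of the 100. The other 63 members are known by Ensembl identifier only. A symbol such as *LRRC16A (1 of 2)* marks 1 of several copies of a gene in the genome, as for 10 named members, and reads of such copies may be shared between them.

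The score of the members ran from 1.55 to 3.74 with a median of 1.74. It was at least 2 in 20 members, at least 2.5 in 7 and at least 3 in 2. The division between members and other genes was not a gap: the last member, ENSGACG00000014917, had a score of 1.552 with a lowest SW33K value of 16.3 and a highest FW value of 10.1 scaled FPKM, and the next gene, ENSGACG00000004552, had a score of 1.550 with 11.1 and 6.81. Ranks 96 to 99 were ENSGACG00000007027, *WDR74*, ENSGACG00000013633 and ENSGACG00000015360, with scores of 1.57, 1.56, 1.56 and 1.56. Ranks 102 to 105 were ENSGACG00000016265, ENSGACG00000006074, ENSGACG00000006704 and ENSGACG00000005629, with scores of 1.55, 1.55, 1.55 and 1.54.

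The members were the upper end of a larger group. In 1094 of the 15503 genes (7.06%) every SW33K value lay above every FW value, and in 1241 (8%) every SW33K value lay below. Computed in the same way for each treatment against the other 9 libraries, 176 genes of FW00K, 61 of FW11K and 184 of FW33K reached the score of the last SW33K member, which 100 genes reached in SW33K. The highest score was 3.74 in SW33K, against 4.78 in FW00K, 4.53 in FW11K and 35.1 in FW33K. The SW33K scores thus lay within the range that the other treatments gave under the same computation. In the opposite direction, 203 genes were low in SW33K by the same score, against 193 in FW00K, 17 in FW11K and 37 in FW33K.

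**Figure D1:**
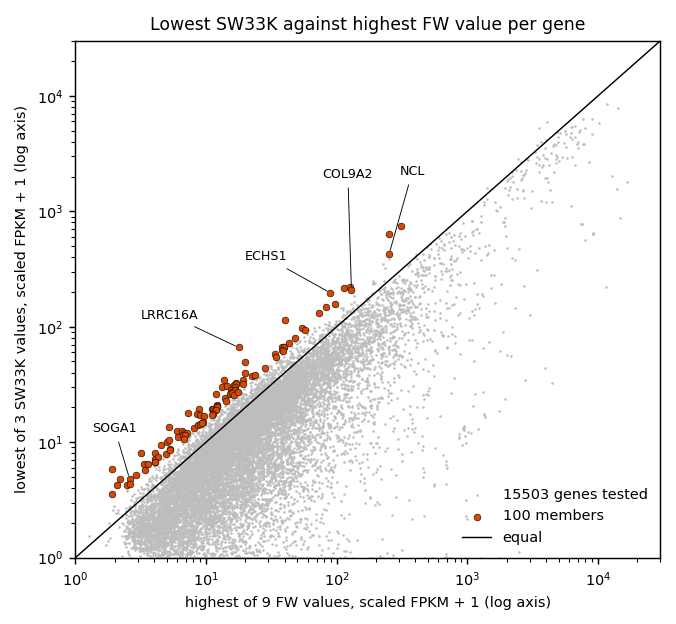
Lowest of the 3 SW33K values against the highest of the 9 FW values of each gene, both as scaled FPKM plus 1 on log axes, with the 100 members as orange points and all 15503 genes tested in grey. The members lie above the line of equal values along the whole range of expression, with *LRRC16A (1 of 2)* farthest from it and *SOGA1* among the low and *NCL* among the high ones.

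Few members were silent in FW fish. Every FW value was under 1 scaled FPKM in 2 members, the median FW value was under 1 in 9, and at least 1 FW library was listed at 0 in 3. The highest FW value was at least 10 in 57 members and at least 100 in 6. Most members were thus genes with a clear level in FW kidneys and a higher one in SW kidneys. The filter on the mean FPKM and the 1 added in the score both disfavor genes of low values. The shares of all genes at these FW levels were not computed. Their mean in SW33K ran from 2.99 to 853 scaled FPKM (median 26.6), under 10 in 18 members and at least 100 in 13. The ratio of the SW33K to the FW33K mean, at equal salinity, had a median of 2.83 (range 1.65 to 163). It was at least 2 in 92 members and at least 5 in 17. Against FW00K the median ratio of the means was 3.64.

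**Figure D2:**
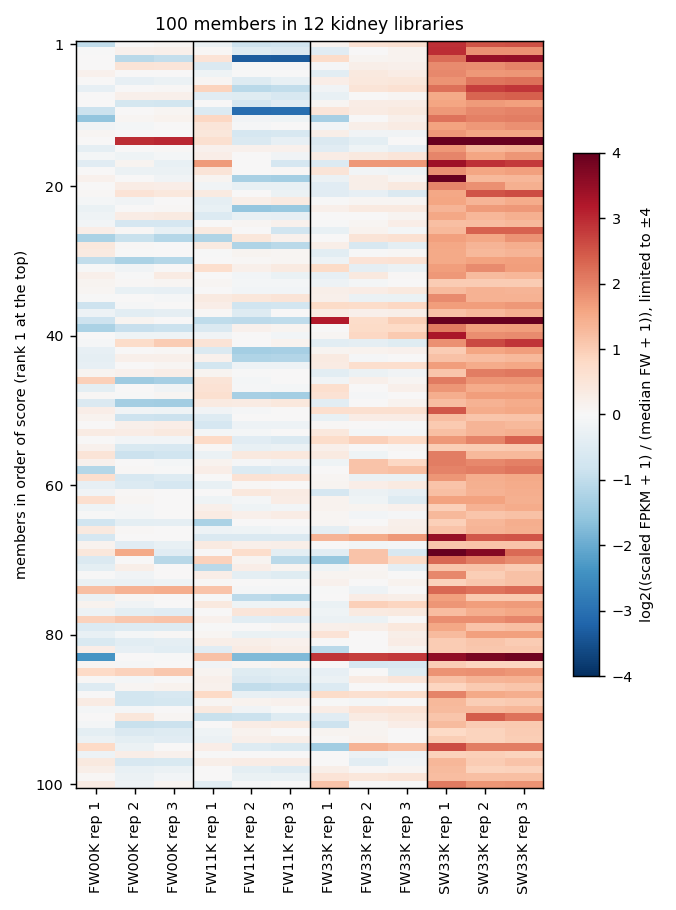
Each row is 1 of the 100 members in order of score and each column 1 of the 12 libraries. Color gives log2 of scaled FPKM plus 1 relative to the gene's median over the 9 FW libraries, limited to 4 in either direction. The 3 SW33K columns are above the FW columns in every row, as the rule requires, and single rows such as rank 14 and rank 83 also have raised FW libraries.

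Among the named members, the highest score was that of *LRRC16A (1 of 2)*, whose mammalian protein (CARMIL) binds actin capping protein and controls actin filaments. It stood at 4.79, 10.5 and 11.1 scaled FPKM in FW00K, 8.85, 5.49 and 5.57 in FW11K, 11.6, 16.2 and 16.7 in FW33K, and 85.8, 65.1 and 66.3 in SW33K. The lowest SW33K fish was 3.90 times the highest FW fish. *PREX2*, an exchange factor that activates the small GTPase Rac, stood at 1.45 to 4.21 in the 9 FW libraries and at 12.6, 12.4 and 13.6 in SW33K. After scaling, the SW33K fish differed little from each other in this gene (12.9 ± 0.669, SD, n = 3). The deposited values were 6.81, 13.7 and 14.4 FPKM. The rule also favors genes with a high lowest SW33K value, and so a small spread among these fish. *CYTH3 (1 of 2)*, an exchange factor for Arf GTPases, stood at 8.04 to 13.3 in FW fish and at 38.5, 29.5 and 34.1 in SW33K.

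Another pair of members of this kind had smaller scores. *RHPN1* stood at 8.67 ± 1.86 in FW33K and 22.0 ± 3.37 in SW33K. *EML4*, a microtubule-binding protein, stood at 15.1 ± 4.53 and 38.6 ± 1.94 (SD, n = 3). In these 5 genes of small GTPases and the cytoskeleton, the SW33K mean was 2.54 to 4.89 times that of FW33K. In the deposited FPKM without scaling, 3 of the 5 still had every SW33K value above every FW value, namely *LRRC16A (1 of 2)*, *PREX2* and *CYTH3 (1 of 2)*.

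Another 2 members described here belong to the methionine and folate cycle, in which a methyl group carried by folate turns homocysteine into methionine. *MTR*, the vitamin B12-dependent methionine synthase, stood at 8.92, 6.90 and 7.51 scaled FPKM in FW00K, 9.43, 5.88 and 7 in FW11K, 11.0, 12.3 and 12.6 in FW33K, and 33.3, 43.2 and 44.9 in SW33K. *MRI1*, an isomerase that recovers methionine from the waste product of polyamine synthesis, stood at 4.02 to 7.47 in FW fish and at 20.2, 16.7 and 17.4 in SW33K. In both genes the SW33K mean was 3.35 to 3.38 times the FW33K mean, and the lowest SW33K fish was 2.23 to 2.64 times the highest FW fish. Without scaling, both remained above all FW libraries.

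Another 5 members are solute carriers, none of them a carrier of sodium chloride. *SLC5A6 (1 of 2)*, which takes up biotin and pantothenate together with sodium, stood at 16.7, 19 and 18.9 in FW00K, 11.7, 11.5 and 10.2 in FW11K, 13.3, 16.4 and 17.3 in FW33K, and 48.9, 87.5 and 89.7 in SW33K. SW33K replicate 1 was the low one of the 3 and still 2.58 times the highest FW fish. *SLC29A2 (1 of 2)*, an equilibrative nucleoside transporter, stood at 2.59 to 6.30 in FW fish and at 16.8, 18.4 and 17.9 in SW33K. *SLC45A4 (2 of 2)* stood at 3.03 to 7.78 and at 20.7, 18.4 and 18.5.

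The remaining pair carries metabolites of the mitochondrion and of lipids. *SLC25A2*, an ornithine carrier of the inner mitochondrial membrane in mammals, stood at 4.96 to 8.59 in FW fish and at 16, 31.7 and 33.3 in SW33K, so that SW33K replicate 1 was at 0.491 of the mean of the other two. *SLC27A4*, a fatty acid transport protein, stood at 10.1 to 14.8 and at 26.3, 29.3 and 30.7. The SW33K mean of the 5 carriers was 2.44 to 4.8 times the FW33K mean, and without scaling only *SLC29A2 (1 of 2)* and *SLC45A4 (2 of 2)* of them lay above every FW library.

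**Figure D3:**
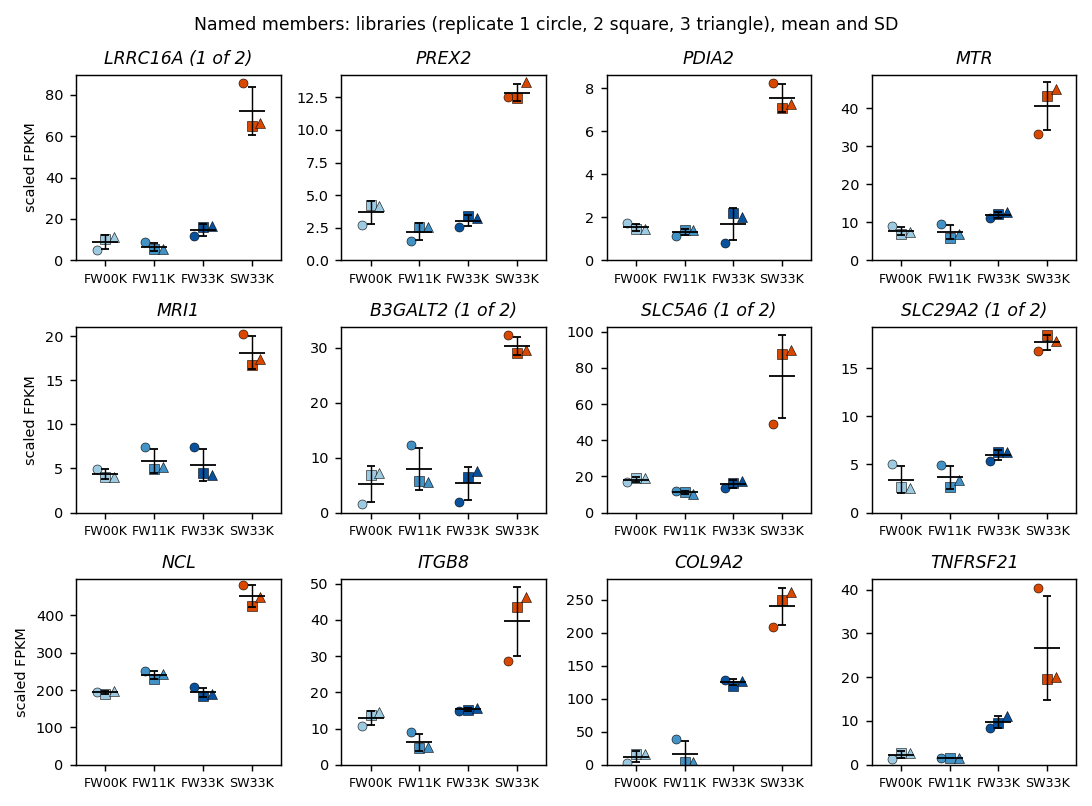
Scaled FPKM of 12 named members in each library, with replicate 1 as a circle, replicate 2 as a square and replicate 3 as a triangle, and the mean and SD of the 3 fish of a treatment as bars. SW33K lies above the FW treatments in each panel, *COL9A2* and *TNFRSF21* are also raised in FW33K, and SW33K replicate 1 stands apart from the other SW33K fish in *SLC5A6 (1 of 2)*, *ITGB8* and *TNFRSF21*.

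Among genes of mitochondrial metabolism, *ECHS1*, an enoyl-CoA hydratase of fatty acid and branched-chain amino acid breakdown, was one of the abundant members. It stood at 56.6, 59.2 and 63.1 scaled FPKM in FW00K, 88.1, 61.1 and 63.8 in FW11K, 59, 75 and 78.7 in FW33K, and 196, 214 and 229 in SW33K. *PPRC1 (1 of 2)*, a coactivator related to PGC-1 that acts on mitochondrial genes, stood at 1.70 to 12.8 in FW fish and at 29.0, 23.5 and 23.3 in SW33K. The highest FW value of this gene was that of FW00K replicate 1, while the other two FW00K fish stood at 1.70 and 1.83. Without scaling, *ECHS1* kept every SW33K value above every FW value. *PPRC1 (1 of 2)* did not, as SW33K replicate 1 (15.7 FPKM) lay below FW00K replicate 1 (21.5 FPKM).

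Another 4 members act in the nucleolus, where ribosomes are built, or in import into the nucleus. *NCL* encodes nucleolin, a major nucleolar protein, and stood at 194, 189 and 198 in FW00K, 250, 228 and 243 in FW11K, 208, 183 and 190 in FW33K, and 483, 424 and 451 in SW33K. The 9 FW fish were close together and the SW33K mean was 2.34 times that of FW33K. *WDR43*, part of the complex that processes the RNA of the small ribosomal subunit, stood at 21.6 to 38.5 in FW fish and at 65.4, 66.1 and 67.4 in SW33K. *WDR74*, which acts in the maturation of the large subunit, stood at 4.48 to 10.2 and at 20.7, 16.5 and 18.1. *TNPO2 (1 of 2)*, a nuclear import receptor, stood at 8.03 to 14.6 and at 39.2, 27.5 and 27.5. Without scaling, only *TNPO2 (1 of 2)* of these 4 had all SW33K values above all FW values.

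Another 7 members encode matrix proteins, their receptors or enzymes that act on matrix and sugar chains. *B3GALT2 (1 of 2)*, a galactosyltransferase, stood at 1.5 to 12.2 in FW fish and at 32.3, 29.1 and 29.6 in SW33K. *LAMA3*, a laminin chain of basement membranes, stood at 1.27 to 3.30 and at 6.45, 8.12 and 7.84. *DDR1*, a collagen receptor kinase, stood at 8.55 to 37.2 and at 65.9, 76.1 and 77.0. As in every member, the rule placed SW33K above all FW libraries in these 3, and *DDR1* varied among FW11K fish, from 8.55 to 37.2. Without scaling, SW33K replicate 1 lay below FW00K in *LAMA3* (3.50 against 4.32 to 4.74 FPKM). In *DDR1* it lay below FW00K replicate 1 (35.8 against 40.8 FPKM). Only 3 of the 7 members kept every SW33K value above every FW value without scaling.

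*HTRA1 (1 of 2)*, a secreted serine protease, was low throughout, at 0.411 to 1.20 in FW fish and 5.46, 3.75 and 3.92 in SW33K. *SPAM1*, a hyaluronidase known from sperm in mammals, stood at 0.0389 to 0.126 in FW33K, 0.391 to 1.90 in FW00K and 4.17, 8.05 and 9.50 in SW33K. Its ratio of SW33K to FW33K means was 89.1, the highest of the named members, with FW33K near 0. *ITGB8*, an integrin subunit that activates latent TGF-beta in mammals, stood at 14.9, 15.2 and 15.7 in FW33K and 28.8, 43.6 and 46.4 in SW33K.

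*COL9A2*, a chain of type IX collagen, was raised in a second treatment as well. It stood at 2.46, 16.8 and 16.7 in FW00K, 39.2, 4.23 and 4.22 in FW11K, 128, 120 and 126 in FW33K, and 208, 249 and 261 in SW33K. Both treatments at 33 g/L lay above all fish at 0 and 11 g/L, and SW33K was 1.92 times FW33K in the mean. *TNFRSF21*, a death receptor of the tumor necrosis factor receptor family, had the same order: 1.34, 2.76 and 2.69 in FW00K, 1.48, 1.48 and 1.49 in FW11K, 8.46, 9.56 and 11.2 in FW33K, and 40.5, 19.6 and 20.1 in SW33K. SW33K replicate 1 was 2.04 times the mean of the other SW33K fish in this gene. The name "high only in SW fish" does not describe these 2 genes. Other members also had higher scaled values in FW33K than in FW00K, as given below.

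Another 3 members act in protein folding and in ubiquitin ligases, which mark proteins for breakdown. *PDIA2*, a protein disulfide isomerase, stood at 0.815 to 2.20 in FW fish and at 8.28, 7.10 and 7.28 in SW33K. *FBXW7*, the substrate-binding subunit of a cullin-based ubiquitin ligase, stood at 2.17 to 4.21 and at 11.0, 9.37 and 10.2. *CAND2*, which regulates the assembly of such ligases, stood at 1.17 to 3.07 and at 8.32, 7.11 and 7.63. All 3 kept every SW33K value above every FW value without scaling. *PDIA2* and *FBXW7* were also the only pair, among 23 member symbols placed once in the RefSeq assembly fGasAcu3.hap1.1, that lay under 1000000 bases apart.

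The other named members have no role in common. *KIAA0319*, a membrane protein studied in neurons of mammals, stood at 1.30 to 4.03 scaled FPKM in FW fish and at 9.05, 18.7 and 20 in SW33K. *SOGA1* had steady values after scaling, 1.06 to 1.60 in FW fish and 3.83 ± 0.0259 (SD, n = 3) in SW33K. Its deposited SW33K values were 2.09, 4.20 and 4.02 FPKM. The deposited FW00K values of *SOGA1* were 2.67, 2.20 and 2.18 FPKM, so without scaling SW33K replicate 1 lay below all FW00K fish. *AIDA*, which binds axin, stood at 32.5 ± 2.97 in SW33K and 10.1 ± 5.09 in FW33K, where replicate 1 (16) was above the other two (6.84 and 7.47). *IGDCC4*, *OSBP2 (2 of 2)*, *TTC27* and *RDM1* had SW33K means of 12.3, 6.72, 27.8 and 22.1 scaled FPKM against 3.19, 2.18, 7.79 and 5.85 in FW33K. The SW33K mean of these 7 genes and *TNFRSF21* was 2.74 to 10.5 times that of FW33K. Without scaling, only 3 of these 8 kept every SW33K value above every FW value, namely *AIDA*, *OSBP2 (2 of 2)* and *TNFRSF21*.

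Of the 25 members with the highest scores, 10 had no symbol. ENSGACG00000011519 stood at 0.126 to 0.904 in FW fish and at 11.8, 4.85 and 4.94 in SW33K. ENSGACG00000018983 was the most abundant member, at 63.4 to 252 in FW fish and 634, 939 and 988 in SW33K. ENSGACG00000001437 stood at 26 to 312 and at 742, 844 and 890. The rank 3 gene, ENSGACG00000020612, reached 39 in FW33K, and its SW33K values were 112, 266 and 275. They thus include both members of low expression and the most abundant one.

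Others of these genes were uneven within treatments. ENSGACG00000018643 stood at 47.4, 25.2 and 26.8 in SW33K, and in FW00K at 10.4 and 10.9 in replicates 2 and 3 but 0.502 in replicate 1, with at most 0.480 in FW33K. Its ratio of SW33K to FW33K means, 163, was the highest of the members and rests on values near 0. ENSGACG00000006397 stood at 67.7 in SW33K replicate 1 and at 8.36 and 8.73 in the other two, against 0.493 to 3.49 in FW fish. ENSGACG00000018489 stood at 4.75 in FW11K replicate 1 and at 4.89 and 4.97 in FW33K replicates 2 and 3, with the other 6 FW values at 0.122 to 0.906 and SW33K at 11.5 to 17.6. The last 3 of the 10, ENSGACG00000000938, ENSGACG00000019157 and ENSGACG00000014034, had SW33K means of 4.32, 46.0 and 31.5 against 0.697, 18 and 13.7 in FW33K.

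SW33K replicate 1 was weighed by the rule like the other SW33K fish. It was the lowest of the 3 in 44 members and the highest in 47, against 44.9% and 46.8% of all genes tested. In 79 members it was within 1.5 times the mean of replicates 2 and 3, in 10 it was lower by more than that and in 11 higher. The shares of all genes for these 3 counts were not computed, and the rule favors a small spread among the SW33K fish. The 3 counts thus cannot be read as a trait of the members. The lowest ratios to that mean were 0.413 in ENSGACG00000006160, 0.416 in ENSGACG00000020612, 0.431 in ENSGACG00000014283, 0.464 in ENSGACG00000011492 and 0.468 in *KIAA0319*, followed by 0.475 in *SPAM1* and 0.491 in *SLC25A2*. When the members were chosen again without this library, 37 of the 100 stayed among the 100 highest scores.

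Many members depended on the scaling as well. Without scaling, the FPKM of SW33K replicate 1 and of the FW33K libraries are low throughout, and all SW33K values lay above all FW values in 48 of the 100 members and in 18 of the 37 with a symbol. All 100 lay above all 3 FW33K libraries, as did 26.7% of all genes tested, but for the members the rule fixed this in advance. Their score was at least 1.55, and the scaling factors were at most 1.84 in SW33K and at least 1.48 in FW33K. Removing factors so close cannot undo that score. For *NCL* the deposited values were 91.3 to 124 FPKM in FW33K, 280 to 325 in FW00K and 262, 466 and 476 in SW33K, so the order of FW00K and SW33K replicate 1 was reversed. For *LRRC16A (1 of 2)* they were 5.08 to 10.9 in FW33K, 8.01 to 15.9 in FW00K and 46.5, 71.6 and 70.1 in SW33K, which left SW33K above all FW fish. Under all 19 other settings of the rule, 10 members stayed among the 100 highest scores, 4 of them with a symbol: *LRRC16A (1 of 2)*, *B3GALT2 (1 of 2)*, *CYTH3 (1 of 2)* and *MRI1*.

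Salinity within FW fish was the comparison that the rule did not use, and it asks whether genes high in SW fish at 33 g/L also changed when FW fish were moved to that salinity. The 9 FW libraries were fitted with limma on log2(scaled FPKM + 1), and a gene was called at a Benjamini-Hochberg adjusted p under 0.01 over the 15503 genes. The rule bounds the highest FW value of a member, so large changes among FW fish are less frequent in the members by construction. Changes on this scale understate those of genes with low values, and the p-values would be too small if replicates 2 and 3 of a treatment were not independent.

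From FW00K to FW33K, 8 members were called, 5 higher and 3 lower, against 15.3% of all genes tested (9.84% higher and 5.46% lower). At an adjusted p under 0.05 these were 27 members and 29.8% of all genes. *TNFRSF21* rose by 1.74 on the log2 scale (SE 0.22, limma adjusted p = 0.000803). The other 4 that rose have no symbol and were chosen for naming after their values were seen. ENSGACG00000001095 rose from 19.1, 24.4 and 25.5 scaled FPKM in FW00K to 46.9, 81.2 and 82.0 in FW33K, with SW33K at 202, 148 and 153 (log2 change 1.53, limma adjusted p = 0.00486). ENSGACG00000000309 rose from 30.5 to 37.1 in FW00K to 64.1 to 112 in FW33K, with SW33K at 215 to 231 (log2 change 1.44, limma adjusted p = 0.00241). ENSGACG00000015989 and ENSGACG00000000304 rose by 0.82 and 0.77. In all 5 the scaled level went up from FW00K to FW33K, and the rule itself placed SW33K above both. Without scaling, none of the 5 was called (limma adjusted p from 0.0421 to 0.924). The change was then 0.60 in *TNFRSF21*, 0.14 in ENSGACG00000001095 and 0.04 in ENSGACG00000000309. It was -0.56 in ENSGACG00000015989 and -0.53 in ENSGACG00000000304, against a median of -1.20 in all genes.

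The 3 that fell were ENSGACG00000017619, ENSGACG00000007483 and ENSGACG00000007466, with log2 changes of -1.43, -1.21 and -1.20 (limma adjusted p = 0.00873, 0.00444 and 0.00620). ENSGACG00000017619 stood at 39.8, 45.1 and 47.0 in FW00K, 16.3, 14.4 and 16.5 in FW33K and 84.4, 78.8 and 83.5 in SW33K. Since the rule placed SW33K above every FW value, the fall itself left FW fish at 0 g/L nearer to SW33K in these 3 genes. With the replicate number as a block in the fit, none of the 3 was called (limma adjusted p from 0.0112 to 0.0159). *COL9A2* had a large change, 3.61 (SE 0.87), that missed the threshold (limma adjusted p = 0.0150), with all 3 FW33K fish above all FW00K fish. *MTR* and *CYTH3 (1 of 2)* had changes of 0.57 and 0.50 (limma adjusted p = 0.0469 and 0.0365), and *KIAA0319*, *SPAM1* and *SLC25A2* changes of -0.80, -0.99 and -0.45 (0.0237, 0.0451 and 0.0394), none of them past the threshold. Without scaling, all genes together had a median change of -1.20 in this comparison, and the changes of *MTR* and *CYTH3 (1 of 2)* turned to -0.72 and -0.80. Those of *KIAA0319*, *SPAM1* and *SLC25A2* were then -1.72, -1.35 and -1.65 and past the threshold (limma adjusted p = 0.00024, 0.00554 and 0.000196).

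**Figure D4:**
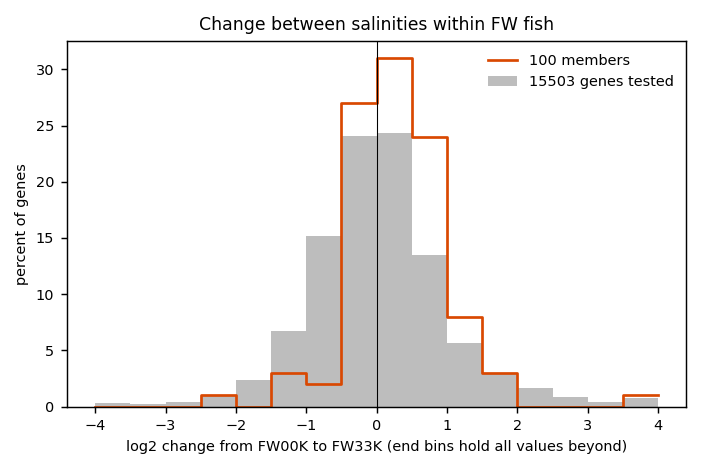
Distribution of the log2 change of scaled FPKM plus 1 from FW00K to FW33K, in bins of 0.5, as percent of the 100 members (orange line) and of the 15503 genes tested (grey bars), with values beyond 4 in the end bins. Of the members, 31% lie between 0 and 0.5 and 24% between 0.5 and 1, against 24.4% and 13.5% of all genes.

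The smaller steps gave fewer calls. From FW00K to FW11K, 2 members were called, ENSGACG00000020319 with a log2 change of 1.47 and ENSGACG00000007483 with -1.29 (limma adjusted p = 0.00868 and 0.00844), against 4% of all genes (2.14% higher and 1.86% lower). From FW11K to FW33K, 2 members were called, *TNFRSF21* with 2.11 and *ITGB8* with 1.23 (limma adjusted p = 0.000623 and 0.00674), against 10% of all genes (6.44% higher and 3.58% lower). At an adjusted p under 0.05, 9 and 16 members were called in these 2 comparisons, against 18% and 26% of all genes. *ITGB8* stood at 10.8, 13.8 and 14.5 in FW00K, 8.92, 4.73 and 4.94 in FW11K and 14.9, 15.2 and 15.7 in FW33K, so it was lower at 11 g/L than at 0 and 33 g/L, and its log2 change of 0.22 (SE 0.23) from FW00K to FW33K was not past the threshold. In each of the 3 comparisons the share of members called was below that of all genes. The rule bounds the highest FW value of a member and so favors this, and it cannot be read as a trait of the members. Without FW00K replicate 1 the shares from FW00K to FW33K were close, 13 members against 13.8% of all genes. With replicates 2 and 3 of a treatment averaged as 1 sample, 0 members were called in any of them, and 0, 7 and 7 of all genes. At an unadjusted p under 0.05 there were 4, 8 and 11 members, against 1837, 2486 and 3323 of the 15503 genes (limma). Leaving out any 1 of the 9 FW libraries moved the 8 calls from FW00K to FW33K by over 1.5 times, to 20 without FW11K replicate 1, to 13 without FW00K replicate 1, to 5 without FW11K replicate 2 or 3 or FW33K replicate 1, and to 1 without replicate 2 or 3 of FW00K or FW33K. The share of all genes called in these fits was 5.84% to 26.7%.

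The direction of the FW values is given as a description. Between FW00K and FW33K the median change of the members was 0.23 on the log2 scale and that of all genes -0.00, and 67 of the 100 members had a positive change, against 49.9% of all genes. All 3 FW33K fish lay above all 3 FW00K fish in 37 members (29% of all genes) and below them in 9 (25%). From FW11K to FW33K the medians were 0.27 and -0.04, and from FW00K to FW11K they were -0.05 and 0.06. The highest FW value was in FW33K in 50 members, against 33.4% of all genes. Without scaling, the median change of the members from FW00K to FW33K was -0.88 against -1.20 in all genes. FW11K replicate 1 was over 1.5 times the mean of FW11K replicates 2 and 3 in 39 members and under it by as much in 12. The share of all genes was not computed, so these counts cannot be read as a trait of the members.

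No osmoregulatory gene of the lists below was found among the members with a symbol. The 63 members without a symbol could not be looked up. The 5 lists examined covered ion transport, osmotic regulation, genes known to diverge between marine and freshwater sticklebacks, antigen presentation and immunity, and xenobiotic and lipid metabolism. Of their genes, 38 had a symbol here and were tested, which leaves most genes of these lists unexamined. None of the 38 was a member and none had every SW33K value above every FW value, against 8.22% of the tested genes with a symbol. Of the 38, 5 had every SW33K value below every FW value, namely *HSP90AA1 (1 of 2)*, *MAP3K15*, *CXCL12 (2 of 2)*, *CYP4F2* and *PPARA (2 of 2)*. The share was 8% of all genes tested. That of the tested genes with a symbol was not computed, so the 5 cannot be set against a like group. *CXCL12 (2 of 2)*, a chemokine, stood at 25.7, 33.8 and 36.8 in SW33K and at 235 to 753 in FW fish. From FW00K to FW33K, 1 of 7 ion transport genes was called higher and 3 lower, as were 2 and 3 of 8 genes of osmotic regulation, 0 and 2 of 3 divergence genes, 0 and 0 of 10 immune genes, and 2 and 7 of 11 genes of xenobiotic and lipid metabolism. These counts stand against 9.84% higher and 5.46% lower of all genes, and against 52% and 23.5% of the 1326 tested genes with a symbol, which the study selected on these same libraries.

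Another 2 lists were chosen after the members were known, so their counts are descriptions of the pathways around members and support nothing. Of 9 ribosome biogenesis genes with a symbol, 3 are members, against 2.79% of the tested genes with a symbol. In 7 of the 9 every SW33K value lay above every FW value, against 8.22% of the tested genes with a symbol. Those of the 7 that are not members were *NOP58*, *UTP18*, *BOP1* and *POLR1A*. *POLR1A*, the largest subunit of RNA polymerase I, stood at 7.08 to 12.7 in FW fish and 17.2, 18.1 and 20.7 in SW33K. *NOP58*, a core protein of small nucleolar RNA particles, stood at 36.8 to 111 and 141, 138 and 149. The sum of the 9 genes was 808 to 865 scaled FPKM in SW33K and 308 to 514 in FW fish. *POP1* and *RPP40*, subunits of RNase P, overlapped between SW33K and FW. From FW00K to FW33K, 3 of the 9 were called higher (*UTP18*, *BOP1* and *RPP40*), none of them a member, against 52% of tested genes with a symbol.

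Of 12 methionine and folate cycle genes described here, 2 are members and 3 had every SW33K value above every FW value. These compare with 2.79% and 8.22% of the tested genes with a symbol. The one of the 3 that is not a member was *SARDH*, which breaks down sarcosine (16.2 to 40.5 in FW fish and 47.7, 50.6 and 52.7 in SW33K). Of the other 9 genes, 5 had their highest treatment mean in FW33K, namely *MAT2A (1 of 2)*, *GNMT*, *CBS*, *ADI1* and *ALDH1L2*, and 4 in FW00K, namely *AHCYL2 (2 of 2)*, *ALDH1L1*, *DMGDH* and *GLDC*. *MAT2A (1 of 2)*, which makes S-adenosylmethionine, stood at 1596 ± 174 in FW33K and 386 ± 267 in SW33K (SD, n = 3), and *GNMT*, which uses it up, at 486 ± 17.4 and 134 ± 70.7. *CBS*, which removes homocysteine from the cycle, stood at 627 ± 167 and 393 ± 186. From FW00K to FW33K, *MAT2A (1 of 2)* rose by 4.87 and *GNMT* by 2.69 on the log2 scale (limma adjusted p = 3.34e-05 and 0.000755), while *MTR* (0.57) and *MRI1* were not called. In all, 5 of the 12 genes were called higher and 3 lower, against the same 52% and 23.5% of tested genes with a symbol. The 3 lower were *AHCYL2 (2 of 2)*, *ALDH1L1* and *GLDC*, with changes of -5.09, -2.23 and -1.49 (limma adjusted p = 0.00034, 0.000613 and 0.00376).

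**Figure D5:**
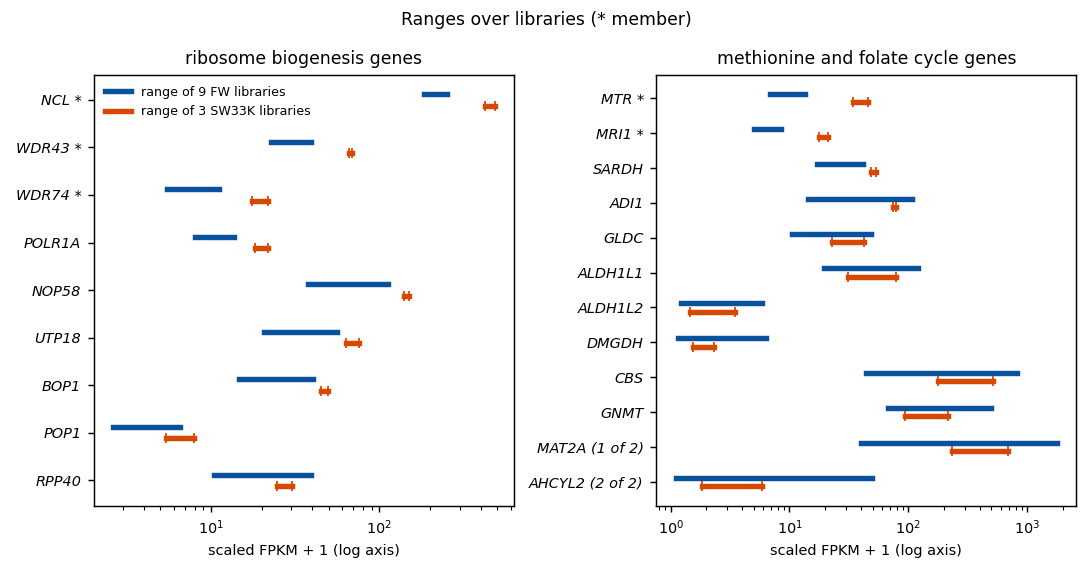
Range of the 9 FW libraries (blue) and of the 3 SW33K libraries (orange) in scaled FPKM plus 1 on a log axis, for 9 ribosome biogenesis genes and 12 methionine and folate cycle genes, with members marked by a star. In 7 of the 9 genes on the left the orange range lies wholly above the blue one, and on the right this holds for 3 of the 12. It holds for 8.22% of the tested genes with a symbol.

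Markers of other cell types moved in the same libraries, and none of them was a member. *BLNK*, a B cell gene, stood at 1.88 to 6.16 in SW33K and 5.58 to 27.7 in FW fish. *SLC4A1 (1 of 2)*, the anion exchanger of red cells, stood at 7.94 to 10.1 and 5.98 to 136. The summed level of 2 macrophage genes was 37.4 to 42.1 in SW33K, within the 23.4 to 45.8 of FW33K. In FW11K and FW00K that sum was 78.0 to 225 and 84.6 to 89.6. The summed level of 4 muscle genes was 2.61 to 4.73 in SW33K, 0.894 to 1.97 in FW33K, 5 to 23.0 in FW11K and 20.7 to 240 in FW00K. The summed level of 3 proximal tubule genes was 24.8 to 79.4 in SW33K against 9.09 to 11.2 in FW33K. It was higher in FW11K (227 to 249) and FW00K (165 to 191) than in SW33K. From FW00K to FW33K all 3 were called lower, against 23.5% of the tested genes with a symbol. Their log2 changes were -6.49 in *MIOX*, -2.41 in *SLC34A1* and -3.16 in *SLC6A19 (1 of 3)*. From FW11K to FW33K the changes were -7.43, -1.08 and -2.49. From FW00K to FW11K they were 0.93, -1.32 and -0.67, and only that of *MIOX* was called (limma adjusted p = 0.00682, 0.0189 and 0.204). *MIOX* is also in the list of osmotic regulation, and the amount of proximal tubule was not measured. For 5 podocyte genes the sum was 58.3 to 118 in SW33K and 50.6 to 70.2 in FW33K. In FW11K and FW00K it was 90.2 to 99.5 and 158 to 250. No symbol was found for markers of endothelium, T cells, chromaffin cells, the corpuscle of Stannius, ovary or intestine, so these cells could not be examined. The part of these differences in the levels of the members was not tested.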

How the data were processed

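Kidney poly A+ RNA of 12 sticklebacks was sequenced by the authors, who discarded reads holding a base with a quality below 20, cut the rest to 75 bases and aligned them to BROADS1, with polymorphic sites masked, using TopHat2 2.0.3. Cufflinks 2.0.2 gave the deposited FPKM, which hold no read counts, so no count model was used. Every 4 samples shared a lane, but lanes are not given per sample in the sources used here.

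Scores and scaled FPKM (each library at a median of 10 over the 15503 genes whose mean FPKM was at least 1) came from Python 3.11.15, numpy 2.4.6 and pandas 2.3.3, and figures with matplotlib 3.10.9. FW treatments were compared with limma 3.58.1 (lmFit, eBayes with trend) in R 4.3.3 on log2(scaled FPKM + 1), which was tested on simulated data. SW33K was left out of the fit because members were chosen for high SW33K values throughout, which lowers their spread. The study's own design used read counts in edgeR, DESeq and baySeq, which were not used here. Each replicate is 1 fish per the study's methods, and the likeness of replicates 2 and 3 is taken up by an alternative that averages them.

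The members and lists were chosen with earlier results of these data known. Genes named were the 25 highest scores, 5 genes on either side of rank 100, the largest called changes from FW00K to FW33K, the 5 lowest ratios of SW33K replicate 1, and members with related symbols or in a list. The other named members, the role groups and 2 lists were chosen after values were seen. Alternatives were no scaling, median-ratio scaling, quantile normalization, a pseudocount of 0.1, no filter, a mean of at least 5 FPKM, replicates 2 and 3 averaged, all 12 libraries in the fit, the replicate number as a block, leaving out each library, and a threshold of 0.05 for the adjusted p. A fit of all libraries but SW33K replicate 1 was added after seeing the data. Symbols came from a supplementary gene table, since no Ensembl identifier matched the RefSeq table (fGasAcu3.hap1.1), and the genome was not used here. Not every member with a symbol is reported here by name.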

Additional observations from a re-analysis of the deposited data

How the results depend on the processing

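Without scaling, 33 of the 100 members stayed among the 100 highest scores, and leaving out 1 library kept 37 (without SW33K replicate 1) to 100. The count of genes with every SW33K value above every FW value, 1094, was 234 without scaling and 1103 to 1863 with 1 library left out, the highest without SW33K replicate 1. The other scalings, filters and the pseudocount kept 77 to 95 members.

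Members called from FW00K to FW11K (2) numbered 9 at an adjusted p under 0.05, 5 without scaling, 1 with median-ratio scaling, a pseudocount of 0.1 or a mean of at least 5 FPKM, 4 with all 12 libraries, 6 with all but SW33K replicate 1, and 0 with quantile normalization (limma, 23 at an unadjusted p under 0.05). With 1 library left out they numbered 0 to 19, the highest without FW11K replicate 1. Of all genes, 4% were called in the main setting, 18% at an adjusted p under 0.05 and 8.57% without scaling. The share was 8.03% with all 12 libraries, 9.38% with all but SW33K replicate 1 and 4.17% with quantile normalization. Quantile normalization gave 5084 of the 15503 genes at an unadjusted p under 0.05 (limma). The share was 4.22% with median-ratio scaling, 3.5% with a pseudocount of 0.1 and 4.73% with a mean of at least 5 FPKM. That last setting tested 77 of the members. It was 0% to 22% with 1 library left out. From FW11K to FW33K (2) they numbered 16 at an adjusted p under 0.05, 17 without scaling, 3 with a pseudocount of 0.1 or a mean of at least 5 FPKM, 8 with all 12 libraries, 9 with all but SW33K replicate 1, and 1 to 19 with 1 library left out. The share of all genes was 10% in the main setting, 26% at an adjusted p under 0.05 and 33% without scaling. It was 9.96% with a pseudocount of 0.1 and 12.1% with a mean of at least 5 FPKM. It was 14.5% with all 12 libraries, 15.4% with all but SW33K replicate 1 and 2.04% to 31.5% with 1 library left out. From FW00K to FW33K (8) they numbered 27 at an adjusted p under 0.05, 37 without scaling, all lower, 13 with all 12 libraries, 14 with all but SW33K replicate 1, and 1 to 20 with 1 library left out. All genes gave 15.3% in the main setting, 29.8% at an adjusted p under 0.05 and 55.8% without scaling (54.1% lower). They gave 19% with all 12 libraries, 20.3% with all but SW33K replicate 1 and 5.84% to 26.7% with 1 library left out. Without FW11K replicate 1, the calls of all genes rose from 620, 1554 and 2372 to 3414, 4878 and 4144. The cause of these differences was not tested.

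With replicates 2 and 3 averaged, 0 members were called in the 3 comparisons (limma, 4, 8 and 11 at an unadjusted p under 0.05), as were 0, 7 and 7 of all genes (1837, 2486 and 3323). Without scaling, 84 of 1328, 285 of 5120 and 271 of 8658 called genes were higher at the higher salinity, against 331 of 620, 999 of 1554 and 1526 of 2372. With the replicate number as a block, 1.56%, 7.91% and 14.2% of all genes were called. Of the members, 0, 2 and 4 were called. At an unadjusted p under 0.05 they numbered 30, 28 and 38 of 100, against 5908, 6642 and 6918 of the 15503 genes (limma). The 4 were all higher, and the 3 that otherwise fell had adjusted p of 0.0112 to 0.0159 (limma). The main fit left the replicate number out. Of 18 same-numbered pairs of libraries, 11 had a correlation of deviations over 0.1 (range -0.04 to 0.40). The highest correlation of a differently numbered pair was 0.095. By the mean correlation with the libraries of the other treatments, all 12 libraries correlated best with their own number. This did not hold in every pair: FW00K replicate 1 had -0.04 with FW11K replicate 1 and 0.09 with FW11K replicate 3. Libraries of the same number thus shared some variation, and its source is not given in the sources used here. Calls that the block removes therefore depend on this choice.

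The change of *CYTH3 (1 of 2)* reversed to -0.80 without scaling (limma adjusted p = 0.00804). That of *TNFRSF21* was 0.60 without scaling (0.0655), 1.81 with averaging (0.0561) and 1.52 to 1.86 with 1 library left out. *COL9A2* passed the threshold with all 12 libraries (0.00499) and without FW11K replicate 1 (0.00247). So did *KIAA0319* in a fit of all libraries but SW33K replicate 1 (0.00986), *KIAA0319* and *CYTH3 (1 of 2)* without FW11K replicate 1 (0.00899 and 0.00763) and *SPAM1* without FW00K replicate 1 (0.00265).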
